A study of Homo sapiens with 6 samples.

Results

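The genes described here are the 70 replication-dependent histone genes among the 60663 genes of a count table from 5637 cells, an established human bladder cancer line. Membership in the set was by name: every gene whose older symbol starts with HIST1H, HIST2H, HIST3H or HIST4H, with 18 pseudogenes left out. The set itself was chosen with earlier results of these data known. The set holds 6 genes for the linker histone H1 and 17, 18, 14 and 15 genes for the core histones H2A, H2B, H3 and H4. RNA was sequenced in 6 libraries, 48 h after transfection. By the series description, every library came from cells given dCas13b-FTO, a Cas13b that binds RNA without cutting it, joined to FTO, an RNA demethylase that acts on N6-methyladenosine (m6A). In 3 libraries the construct was paired with a control guide RNA, and in 3 with a guide RNA against HRAS. The sample titles name dCas13b without FTO, whereas the columns of the table name FTO. The labels do not state that libraries within a group were separate cultures. P-values therefore measure only the spread among the 6 libraries, which may be technical.

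As background, replication-dependent histones are made mainly in S phase, when new DNA must be packed. Each nucleosome holds copies of H2A, H2B, H3 and H4, and H1 binds the DNA that enters and leaves it. Their mRNAs are the main animal mRNAs that end without a poly(A) tail: the pre-mRNA is cut a few bases after a conserved stem-loop, which the protein SLBP binds. A part of the genes can also make longer, polyadenylated transcripts. A library made from poly(A) RNA misses most of the stem-loop-ended form. Whether these libraries were made from poly(A) RNA or from RNA depleted of ribosomal RNA is not given in the sources used here.

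Of the 70 genes, 55 lie in the large cluster on chromosome 6 (older names HIST1), 11 in a cluster on chromosome 1 (HIST2), 3 in another place on chromosome 1 (HIST3) and 1 on chromosome 12 (HIST4, the gene H4C16). The 16-base stem-loop is what these mRNAs share and what sets their 3′ ends apart, so each form found is printed here from tested members, with 5 flanking bases in lower case and the stem-loop in capitals (sequence and strand from GENCODE 29 on GRCh38).
H2AC6, chr6:26124669-26124684, plus strand: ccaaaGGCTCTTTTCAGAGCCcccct
H2BC21, chr1:149886188-149886203, minus strand: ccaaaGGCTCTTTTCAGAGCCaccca
H2BC5, chr6:26158587-26158602, plus strand: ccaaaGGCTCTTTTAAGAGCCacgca
H3C6, chr6:26225596-26225611, plus strand: ccaaaGGCTCTTCTCAGAGCCaacca
H4C8, chr6:26285131-26285146, minus strand: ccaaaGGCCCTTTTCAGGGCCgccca
H4C9, chr6:27139654-27139669, plus strand: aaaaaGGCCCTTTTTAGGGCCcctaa
H2AC11, chr6:27133515-27133530, plus strand: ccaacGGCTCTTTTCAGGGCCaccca
Coordinates are those of the 16 bases in capitals.

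The search used the consensus of the histone 3′ stem-loop on the transcript strand, with its variable positions left free. The annotated transcripts reached past the stop codon far enough to be searched for 36 of the 70 genes. Of these, 32 (88.9%) held such a stem-loop in the first 100 bases after the stop codon, starting 23 to 68 bases after it. Where fewer bases were annotated, only those were searched. Among the genes without a match, H1-4, H1-6 and H4C3 had 57, 51 and 51 annotated bases after the stop codon. No H1 gene was among the 32, and the other H1 genes had no annotated bases there. In the other genes searched in the same way the stem-loop was found in 3 of 19403 (0.0155%). The form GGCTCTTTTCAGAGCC was the most frequent, in 17 genes of H2A, H2B and H3. The form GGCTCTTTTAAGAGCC was found in 5 genes of H2B and H3. Both forms with a GGCCC stem, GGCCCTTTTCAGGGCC in 5 genes and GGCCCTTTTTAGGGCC in 3, were found in H4 genes alone among the members. H3C6 carried a form that no other member held, and so did H2AC11.

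The promoters of the classes differ in which short motifs they hold. RefSeq starts (GRCh38.p14) were at hand for 65 of the 70 genes, and not for H2AC12, H3C11, H3C12, H4C1 and H4C3. The 150 bases before the start are printed for the H1, H2A, H2B and H4 genes with the most reads in their class, 5′ to 3′ on the gene's strand, with motif matches on either strand in capitals.
H1-2, chr6:26056471-26056620, minus strand: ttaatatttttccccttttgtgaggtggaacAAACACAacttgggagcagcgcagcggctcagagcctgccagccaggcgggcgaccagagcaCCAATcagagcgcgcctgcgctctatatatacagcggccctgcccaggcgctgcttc
H2AC6, chr6:26124022-26124171, plus strand: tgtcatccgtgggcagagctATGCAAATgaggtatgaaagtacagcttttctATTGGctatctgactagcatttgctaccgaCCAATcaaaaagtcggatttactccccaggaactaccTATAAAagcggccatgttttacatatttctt
H2BC21, chr1:149886683-149886832, minus strand: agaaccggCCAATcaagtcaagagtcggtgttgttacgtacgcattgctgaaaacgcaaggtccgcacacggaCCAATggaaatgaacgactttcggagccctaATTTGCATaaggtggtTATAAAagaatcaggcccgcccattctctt
H4C9, chr6:27139132-27139281, plus strand: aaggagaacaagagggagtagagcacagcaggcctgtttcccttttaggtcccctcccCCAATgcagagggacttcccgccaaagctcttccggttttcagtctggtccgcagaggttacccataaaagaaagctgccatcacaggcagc
The motifs searched, on both strands of the 250 bases before the start, were the TATA box TATAAA, the CCAAT box CCAAT, the octamer ATTTGCAT and the H1 box AAACACA, none of which overlaps another in the printed stretches.

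AAACACA was present in 6 of 6 H1 promoters and in none of the other classes, against 5.95% of the 27305 genes with a RefSeq start. ATTTGCAT was present in 11 of 16 H2A, 14 of 18 H2B and 1 of 12 H3 promoters, against 2.03% of all genes. No H1 or H4 promoter held it. In 11 pairs of an H2A and an H2B gene the starts lie 193 to 247 bases apart, so the stretches searched overlap. A site between them can count for both genes, as for H2AC6 and H2BC4, so the H2A and H2B counts are not independent. The H3 gene with a match was H3C4, whose CCAAT and octamer matches lay at the same distances from the start as those of H2AC7. It may be the same stretch. CCAAT was present in all H1, H2A, H2B and H3 promoters searched and in 3 of 13 for H4, against 37% of all genes. TATAAA was present in 44 of 65 members, against 13% of all genes. A match describes the letters only.

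Library totals ran from 24968702 to 32283370 counts. The histone genes together took 2350 to 2924 counts per library, between 0.00857% and 0.01002% of the total. In 13 genes no read was counted in any library, which for 1 library allows up to 3 counts, or 0.0929 to 0.120 CPM (counts relative to library size), for counting error only. A further 9 genes had 1 to 10 counts over all 6 libraries. After the filter on low counts 30 genes were tested: 3 of H1, 6 of H2A, 12 of H2B, 4 of H3 and 5 of H4. The 40 genes that were not tested reached at most 57 counts over all libraries and a mean of 0.325 CPM.

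CPM here is the count scaled to a common library size by TMM factors (trimmed mean of M values). Summed over the 70 genes, the level was 93.8, 103.0 and 86.5 CPM in control guide replicates 1, 2 and 3, and 94.5, 91.0 and 89.9 CPM in HRAS guide replicates 1, 2 and 3. The highest total was in control guide replicate 2 and the lowest in control guide replicate 3, so all 3 HRAS guide libraries lay between control libraries. The means were 94.4 ± 8.29 and 91.8 ± 2.44 CPM (SD, n = 3), a log2 ratio of −0.04. The ratio was 0.03 without control guide replicate 2 and −0.11 without control guide replicate 3. In bulk RNA a level depends on the share of cells that make a transcript and on the amount per cell, which cannot be told apart. H2B genes held 46.4% of the total, H1 genes 25.9%, H2A genes 12.5%, H4 genes 11.2% and H3 genes 3.99%. These are shares of reads, which also rise with the length of a transcript.

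**Figure D1:**
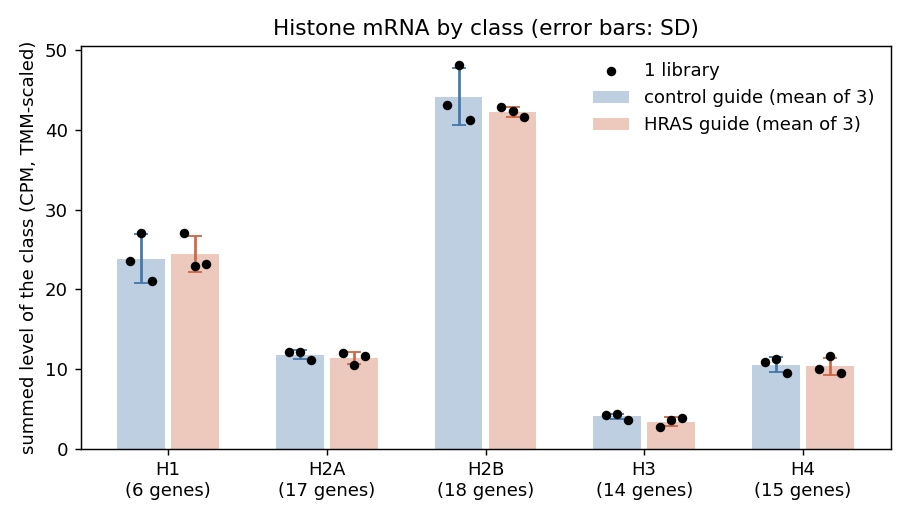
Summed level of each histone class (y axis, TMM-scaled CPM) in the control guide and HRAS guide groups. Bars are means of 3 libraries, error bars SD and points single libraries. In every class the points of the 2 groups overlap, and H2B is highest at 41.2 to 48.2 CPM per library.

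None of the 30 tested genes passed an adjusted p of 0.05 in edgeR's quasi-likelihood test with Benjamini-Hochberg adjustment over all 19836 tested genes, of which 2 passed (0.0101%). All 30 adjusted p-values were 0.9998. At an unadjusted p under 0.05 the count was 0 of 30, against 3.34% of all tested genes, and the smallest unadjusted p was 0.0789, for H3C6. DESeq2 and limma-voom called none of the members either. The groups did not overlap in 1 member with lower values in the HRAS guide libraries (H3C6), against 4% of all tested genes, and in 0 with higher values, against 4.81%. Of the 30 log2 fold changes, given throughout as HRAS guide minus control guide, 12 were above 0 and 18 below. Their median was −0.05, beside a median of −0.00135 over all tested genes. Over the same 30 genes the median was 0.03 without control guide replicate 2, which had the highest histone total, with 17 estimates above 0 and 13 below.

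The 95% intervals give the range of differences around each estimate, for 1 gene at a time. They are not adjusted for the number of genes tested, so their widths are not limits of detection. How large a difference would have passed the adjusted threshold was not tested. For 11 of the 30 genes the interval lay within 1.5-fold in both directions, and for 22 within 2-fold. The distance from the estimate to either bound ran from 0.25 to 0.99 on the log2 scale, with a median of 0.51. The median coefficient of variation within groups was 17.5% over the tested members, against 15.2% that counting alone would give at their counts.

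**Figure D2:**
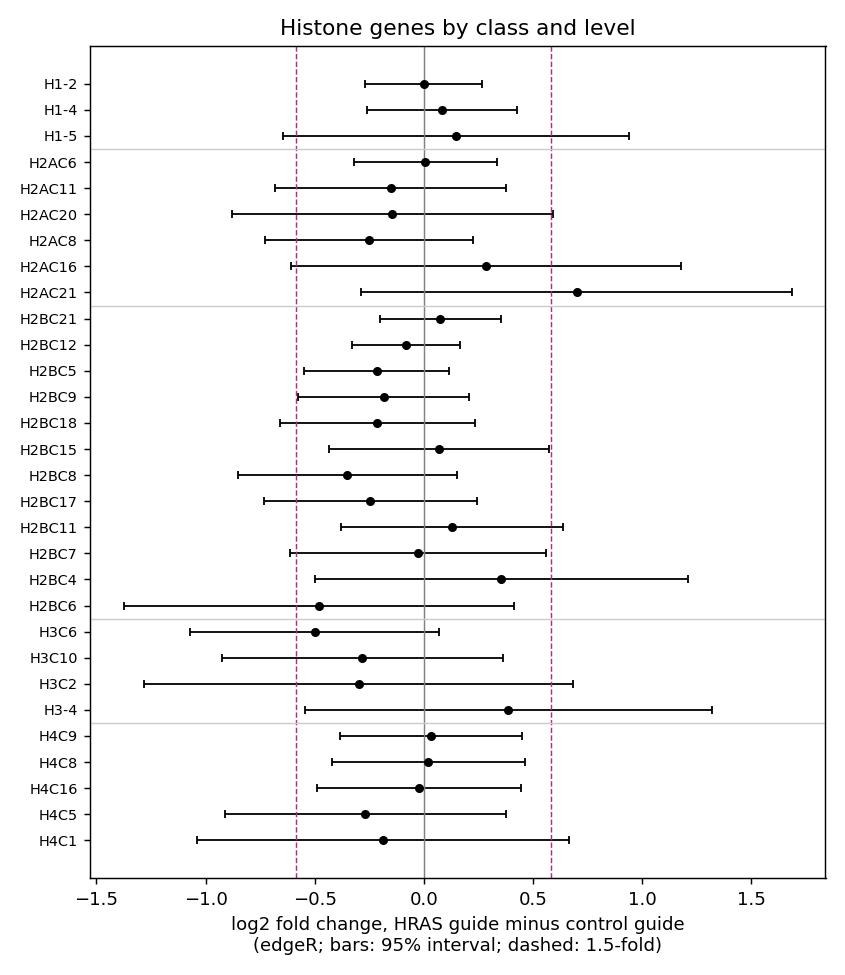
Log2 fold change of the 30 tested histone genes, HRAS guide minus control guide (x axis), by gene, grouped by class from H1 at the top to H4 and ordered by level within a class. Points are edgeR estimates, bars 95% intervals and dashed lines 1.5-fold. All 30 intervals cross 0, and 11 lie between the dashed lines.

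H1 linker histones bind the outside of the nucleosome and help to fold chromatin. H1-2 (older name HIST1H1C, chr6:26055787-26056428) carried 68.0% of the H1 reads and more reads than any other member. Its level was 15.9, 18.6 and 14.8 CPM in the control guide libraries and 17.9, 15.6 and 15.8 CPM in the HRAS guide libraries. The groups overlapped fully, and the log2 fold change was 0.00 ± 0.12 (SE). H1-4 had 6.54, 7.65 and 5.46 CPM with the control guide and 7.77, 6.39 and 6.70 CPM with the HRAS guide, a log2 fold change of 0.09 ± 0.15. For both genes the interval was within 1.5-fold. H1-5 was measured at 0.623, 0.652 and 0.661 CPM and at 1.01, 0.751 and 0.430 CPM, so the HRAS guide libraries lay on both sides of the control libraries (0.15 ± 0.36). H1-3 (46 counts over all libraries), H1-6, known from testis (4 counts), and H1-1 (1 count) were not tested. The H1 total was 23.5, 27.1 and 21 CPM with the control guide and 27.0, 23.0 and 23.2 CPM with the HRAS guide. The highest library of each group, control guide replicate 2 and HRAS guide replicate 1, had nearly the same total. After the correction for GC content and length described below, the H1 totals were 25.6, 23.94 and 21.45 CPM with the control guide. With the HRAS guide they were 26.0, 24.49 and 23.05 CPM. Control guide replicate 1 was then the highest of its group.

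H2A pairs with H2B in the nucleosome, and most H2A genes lie head to head with an H2B gene. H2AC6 (HIST1H2AC, chr6:26124145-26139116) held 41.2% of the H2A reads, with 4.64, 4.71 and 4.96 CPM in the control guide libraries and 5.19, 4.06 and 5.13 CPM in the HRAS guide libraries. The HRAS guide libraries were both above and below the control range, and the log2 fold change was 0.01 ± 0.15, with an interval within 1.5-fold. H2AC11 was at 2.53, 1.52 and 2.38 CPM and at 1.57, 2.05 and 2.15 CPM (−0.15 ± 0.24). H2AC20 was at 1.21, 2.21 and 1.39 CPM and at 2.17, 1.13 and 1.11 CPM (−0.14 ± 0.33). In H2AC20, 1 library of each group stood near 2.2 CPM and the other libraries near 1.1 to 1.4 CPM. Those were control guide replicate 2 and HRAS guide replicate 1, the same pair that was highest in H1 before the GC and length correction. In H2AC20 this pair was also highest after that correction, at 1.83 and 2.05 CPM.

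H2AC8 had 1.80, 1.59 and 1.46 CPM with the control guide and 1.17, 1.5 and 1.38 CPM with the HRAS guide (−0.25 ± 0.21), with 1 HRAS guide library inside the control range. H2AC21 had the largest positive estimate of the members, 0.70 ± 0.44, from 0.381, 0.181 and 0.198 CPM against 0.362, 0.512 and 0.369 CPM. Its interval ran from −0.29 to 1.69, its exons overlap BOLA1 on the opposite strand, and its groups overlapped. H2AC16, the other tested H2A gene, was at 0.28 ± 0.40, and 11 H2A genes were not tested, 4 of them at 0 counts. The H2A total was 12.2, 12.1 and 11.1 CPM with the control guide and 12, 10.6 and 11.7 CPM with the HRAS guide. The median of the 6 tested H2A genes was −0.07.

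H2B was the class with the most tested genes, 12 of 18. H2BC21 (HIST2H2BE, chr1:149884459-149886652) held 29.6% of the H2B reads, with 13.2, 13.5 and 10.7 CPM in the control guide libraries and 14.1, 13.1 and 12.2 CPM in the HRAS guide libraries. The log2 fold change was 0.08 ± 0.13 and the groups overlapped. H2BC12 (HIST1H2BK, chr6:27146418-27146798) was at 11.5, 12.9 and 11.4 CPM and at 11.9, 10.8 and 11.1 CPM, the narrowest interval of all members (−0.08 ± 0.11). Of its 75-base windows 50.5% occur in another annotated gene as well, so a part of its reads may be assigned to or from a copy. Per kilobase of annotated transcript, H2BC12 had the highest level of the members, 30.5 CPM per kb, followed by H1-2 at 25.6, H1-4 at 8.95, H2BC5 at 7.51 and H2BC21 at 5.83. The annotation behind the length of H2BC12 and of H1-2 holds the coding part alone, which raises a level per kilobase.

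H2BC5 had 4.46, 5.73 and 5.36 CPM with the control guide and 4.43, 4.78 and 4.18 CPM with the HRAS guide (−0.22 ± 0.15). H2BC9 had 3.18, 3.84 and 2.78 CPM and 2.66, 2.87 and 3.07 CPM (−0.18 ± 0.18). H2BC8 had 1.49, 1.92 and 2.41 CPM and 1.53, 1.5 and 1.54 CPM (−0.35 ± 0.23). In these 3 genes the HRAS guide means were lower, but at least 1 HRAS guide library lay inside the control range. The other 7 tested H2B genes were H2BC4, H2BC6, H2BC7, H2BC11, H2BC15, H2BC17 and H2BC18, with means between 0.346 and 2.51 CPM and estimates from −0.48 (H2BC6) to 0.36 (H2BC4). Over all 12, 4 estimates were above 0 and 8 below, with a median of −0.13, which was −0.04 without control guide replicate 2. The H2B total was 43.2, 48.2 and 41.2 CPM with the control guide and 42.9, 42.4 and 41.6 CPM with the HRAS guide, so the HRAS guide libraries lay within the control range.

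**Figure D3:**
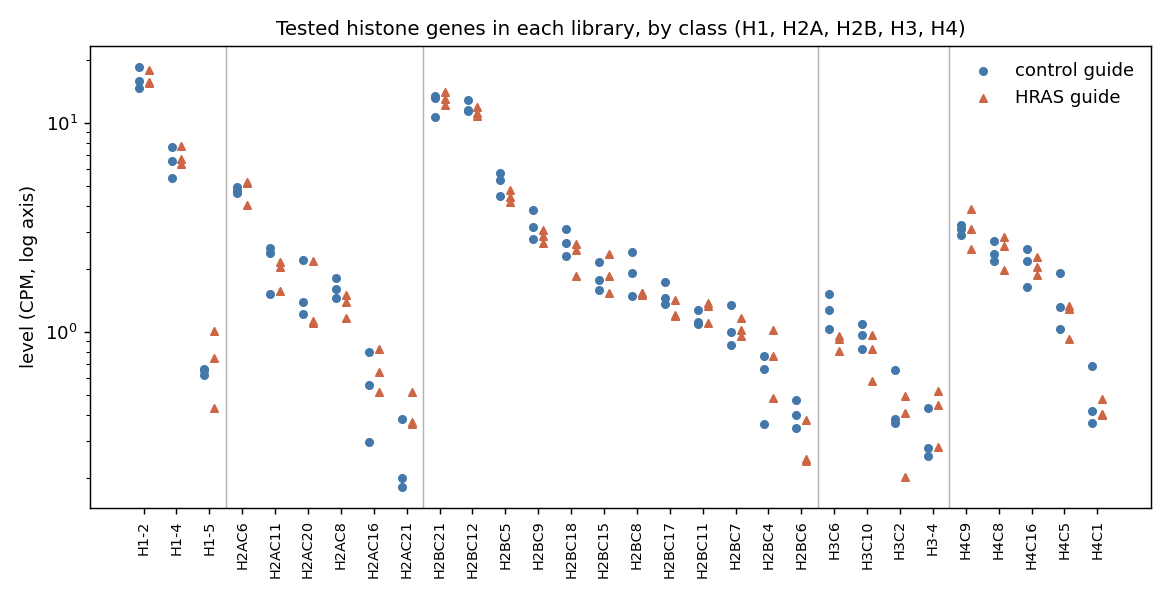
Level of the 30 tested histone genes (y axis, CPM on a log axis) by gene, with 1 circle per control guide library and 1 triangle per HRAS guide library. Vertical lines separate the classes. H3C6 is the 1 gene whose triangles all lie below its circles, and H1-2 has the highest mean.

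H3 and H4 form the core of the nucleosome, and their tails carry most of the known histone marks. H3 genes had the fewest reads, 68 to 126 counts per library over 14 genes. H3C6 (HIST1H3E, chr6:26224199-26227473) was at 1.52, 1.27 and 1.03 CPM in the control guide libraries and at 0.805, 0.956 and 0.922 CPM in the HRAS guide libraries. Its lowest control guide library was above its highest HRAS guide library. The log2 fold change was −0.50 ± 0.26, with an interval from −1.07 to 0.07, and the test was not passed. H3C10 was at 0.969, 1.09 and 0.827 CPM and at 0.966, 0.581 and 0.830 CPM (−0.28 ± 0.29). H3C2 was at 0.381, 0.652 and 0.364 CPM and at 0.201, 0.410 and 0.492 CPM (−0.30 ± 0.44). H3-4, a testis-type H3 gene in the HIST3 group, was at 0.277, 0.254 and 0.430 CPM and at 0.282, 0.444 and 0.522 CPM (0.39 ± 0.42).

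No H3 gene had an interval within 1.5-fold. The H3 total was 4.19, 4.31 and 3.64 CPM with the control guide and 2.74, 3.55 and 3.87 CPM with the HRAS guide, a log2 ratio of −0.26, which was the largest of the classes in size. HRAS guide replicate 3 lay inside the control range. The median of the 4 tested H3 genes, −0.29, was −0.09 over the same genes without control guide replicate 2, and lay between −0.426 and −0.235 without each of the other libraries. The log2 ratio of the H3 totals was −0.12 without HRAS guide replicate 1 and −0.15 without H3C6.

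H4 is the histone whose many genes encode the same protein. H4C9 (HIST1H4I, chr6:27138588-27139881) held 29.9% of the H4 reads, with 3.25, 3.12 and 2.91 CPM in the control guide libraries and 2.49, 3.86 and 3.10 CPM in the HRAS guide libraries (0.03 ± 0.19). H4C8 was at 2.35, 2.72 and 2.18 CPM and at 2.58, 2.83 and 1.97 CPM (0.02 ± 0.20). H4C16 was at 2.49, 1.63 and 2.18 CPM and at 2.05, 1.88 and 2.27 CPM (−0.02 ± 0.21). In these 3 genes the groups overlapped and the interval was within 1.5-fold. H4C5 was at 1.32, 1.92 and 1.03 CPM and at 1.29, 1.33 and 0.922 CPM (−0.27 ± 0.29), and H4C1 at −0.19 ± 0.38 on the log2 scale from means of 0.489 ± 0.175 and 0.427 ± 0.0446 CPM. The H4 total was 10.8, 11.3 and 9.49 CPM with the control guide and 9.94, 11.6 and 9.47 CPM with the HRAS guide.

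The levels of the histone genes were also set beside the annotation of their 3′ ends. In GENCODE 29, 26 members had a transcript that runs 150 bases or more past the stop codon or has more than 1 exon, and 18 of these were tested, with a median of 1.15 CPM over all 26. Of the 44 members without such a transcript, 12 were tested, and the median over all 44 was 0.121 CPM. The longer-annotated genes held 51.9% of the histone reads. Longer annotated transcripts also collect more reads at the same level. Per kilobase the medians were 0.894 and 0.294 CPM per kb. The classes are unequal in this annotation, with 11 of 18 H2B genes and none of the 6 H1 genes among the 26. In H2B the medians were 1.73 and 0.0442 CPM, whereas in H3 the longer-annotated genes had the lower median, 0.0930 against 0.187 CPM. Those H3 genes include the copies H3C14 and H3C15, whose reads may be assigned to or from another gene. H1-2 and H2BC12 stand apart, with 16.4 and 11.6 CPM and no longer transcript in that annotation. RefSeq gives H2BC12 a span of 8566 bases, and GENCODE 29 a transcript of 381 bases. The annotation release behind the counts is not given in the sources used here, and the part of the 3′ annotation in these levels was not tested.

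**Figure D4:**
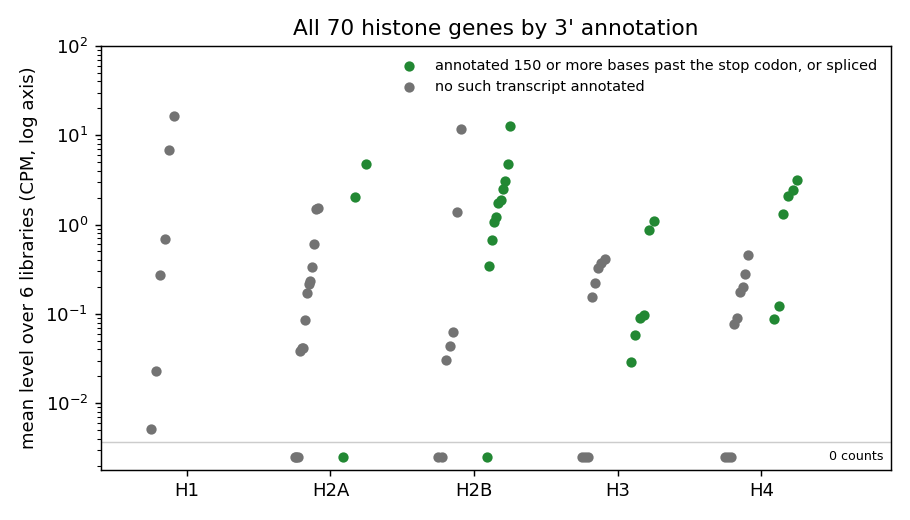
Mean level over 6 libraries (y axis, CPM on a log axis) of all 70 histone genes by class. Green points are the 26 genes annotated 150 or more bases past the stop codon or spliced, grey points the other 44, and points under the line had 0 counts. The medians are 1.15 and 0.121 CPM, and the 2 highest grey points are H1-2 and H2BC12.

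Near-identical copies and overlapping genes limit some of these values. In 15 members at least 50% of the 75-base windows are found in another annotated gene, and 1 of them (H2BC12) was tested. The chromosome 1 cluster holds a duplicated block in which H2AC18 and H2AC19 (15 and 28 counts over all libraries), H3C14 and H3C15 (5 and 17 counts) and H4C14 and H4C15 (15 and 21 counts) are such copies. Exons of 14 members overlap another gene, 5 of them tested. Among the pseudogenes left out of the set, H2BC20P had a mean of 8.18 CPM and H2BC19P of 2.02 CPM.

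Pairs of an H2A and an H2B gene were sought among genes with a RefSeq start, which H2AC12, next to H2BC12, lacked. In 11 pairs the starts lie 193 to 247 bases apart on opposite strands. Both genes were tested in 4 pairs. Per kilobase the H2A gene was higher in H2AC6 and H2BC4 (2.89 and 1.10 CPM per kb) and in H2AC8 and H2BC8 (2.91 and 1.13). The H2B gene was higher in H2AC20 and H2BC21 (3.94 and 5.83) and in H2AC11 and H2BC11 (0.904 and 2.97). This order depends on the annotated lengths. Without division by length it turned round in 2 of the 4 pairs: H2AC8 and H2BC8 (1.48 and 1.73 CPM) and H2AC11 and H2BC11 (2.03 and 1.21 CPM). The estimates of both genes had the same sign in 2 of the 4 pairs. No difference within a pair was tested.

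The genes of histone variants outside the replication-dependent clusters had far more reads. Reads were not scaled for transcript length here, and poly(A) selection, if used, would miss most stem-loop-ended mRNA of the members. The ratio of reads is therefore not a ratio of mRNA amounts. The 12 variant genes summed to between 2149 and 2367 CPM per library, 24.3 times the total of the 70 members. H3-3A and H3-3B, which encode H3.3, gave 1060 to 1117 CPM of it, against 3.39 to 4.05 CPM for the group means of the 14 replication-dependent H3 genes. Of the 12 variants 11 were tested, and H3-5 was not. None passed the test. The estimates were above 0 in 6 and below in 5, with a median of 0.000750. H2AX, the variant phosphorylated at DNA breaks, was at 172 ± 23.0 and 155 ± 10.6 CPM (SD, n = 3), a log2 fold change of −0.15 ± 0.11. CENPA, the centromeric H3, was at 30.3 ± 1.39 and 27.6 ± 2.03 CPM, a log2 fold change of −0.13 ± 0.10.

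The genes that make and process histone mRNA did not pass the test either. Of 20 such genes 0 passed, with 7 estimates above 0, 13 below and a median of −0.02. SLBP, which binds the stem-loop, was at 65.1, 57.1 and 62.3 CPM with the control guide and 60.0, 61.2 and 57.8 CPM with the HRAS guide, a log2 fold change of −0.04 ± 0.09. NPAT, the activator of histone gene transcription, was at 25.4, 14.6 and 22.8 CPM and at 16.3, 23.0 and 20.1 CPM (−0.08 ± 0.20). Control guide replicate 2 was lowest for NPAT and highest for the histone total. That library was also the lowest for some other genes of this list and the highest for others. LSM1, a subunit of a complex in histone mRNA decay, was at −0.12 ± 0.12, and CCNE1, the cyclin that with CDK2 drives S phase entry, at 0.09 ± 0.09.

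Of 16 histone chaperones and carriers 0 passed, with 9 estimates above 0, 7 below and a median of 0.00228. NAP1L1, a carrier of H2A and H2B, was at 313, 302 and 319 CPM with the control guide and 333, 332 and 321 CPM with the HRAS guide. Its groups did not overlap, as in 4.81% of all tested genes with higher HRAS guide values. The log2 fold change of NAP1L1 was 0.08 ± 0.07, and 0.03 ± 0.08 after correction for GC content and length. HJURP, the chaperone of CENPA, was at −0.08 ± 0.09. Of 18 S phase genes 0 passed, with 11 estimates above 0, 7 below and a median of 0.01. PCNA, the sliding clamp of DNA polymerase, was at 0.07 ± 0.07, and MCM6, a subunit of the replicative helicase, at 0.10 ± 0.09. HRAS itself, the target of the guide, was at 146, 230 and 169 CPM with the control guide and 200, 167 and 184 CPM with the HRAS guide (0.01 ± 0.15).

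The libraries differed in how their values ran with the GC content of genes. Spearman's rho between GC content and a library's deviation from the mean ran from −0.67 to 0.76, across genes, which are not independent replicates. Both signs occurred in both groups, and control guide replicate 2 was highest. After a correction for GC content and length, 39 of 19490 tested genes passed the test (0.2%) and 0 of the 30 histone genes did, with a smallest adjusted p of 0.8761 in edgeR. The estimates were then above 0 in 11 members and below in 19, with a median of −0.06. H3C6 stayed at −0.50 ± 0.26. The groups then did not overlap in H3C6 and H2BC17, both lower in the HRAS guide libraries, against 6.3% of the 19490 genes, and in 0 members with higher values, against 5.96%. The tallies of 2 of the gene lists turned round with the correction: S phase genes then had 7 estimates above 0 and 11 below (median −0.00470), and chaperones and carriers 6 and 10 (median −0.02).

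**Figure D5:**
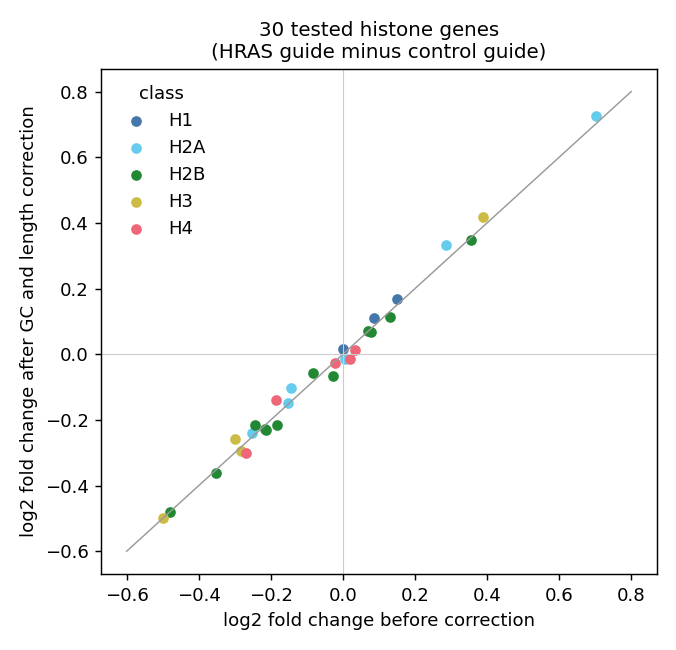
Log2 fold change of the 30 tested histone genes before (x axis) and after (y axis) correction for GC content and length, colored by class, HRAS guide minus control guide. The grey diagonal marks equal values. Points lie along the diagonal, and H3C6 is at −0.50 on both axes.

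The cell line was also checked with marker genes of epithelial and other cells. All 10 epithelial and urothelial markers were above 1 CPM, with a sum of 10230 to 13460 CPM in the control guide libraries and 10460 to 11870 CPM in the HRAS guide libraries. Of the fibroblast markers 2 of 4 were above 1 CPM (COL1A1 at 170 CPM, with COL3A1 and DCN below) and of the endothelial markers 1 of 3 (VWF, with PECAM1 and CDH5 below). The sums over all libraries were 141 to 211 CPM for the fibroblast markers and 3.18 to 4.53 CPM for the endothelial markers.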

How the data were processed

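RNA of 6 libraries was compared, 3 with the control guide and 3 with the HRAS guide. The authors deposited raw whole-number gene counts in 1 table of 60664 rows, of which 1 without values was left out. Per the submitters' processing notes, HISAT2, StringTie, DESeq2 and hg38 were used, with no versions or roles. On the counting tool, the annotation release, the strandedness and the RNA selection, nothing is given in the sources used here. Without strand, reads of genes that overlap on opposite strands cannot be told apart.

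Columns were matched to libraries by guide and replicate number. A gene name table held 60462 of the identifiers, and GENCODE 29 held 58395. Older and newer symbols, promoters and gene spans came from RefSeq (GRCh38.p14). Of the members, 2 were matched to GENCODE 29 by older symbol. Counts were filtered with filterByExpr, scaled by TMM and tested with the two-sided quasi-likelihood test of edgeR 4.0.16 in R 4.3.3, with Benjamini-Hochberg adjustment over all tested genes and a threshold of 0.05. SE was recovered from the F statistic, and intervals are at 95%. The GC and length correction used spline trends (5 and 4 degrees of freedom, prior count of 2) over 13995 genes above a mean log2 CPM of 1, with the members left out of the trend. Alternatives used DESeq2 1.42.0, limma 3.58.1, other scalings and filters, a replicate block and leaving out each library. The scripts were tested on simulated data. No 2 libraries agreed within sampling noise (chi-square per degree of freedom of 3.01 or more).

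The members and gene lists were chosen with earlier results of these data known. Named genes are, per class, the 4 tested members with the highest mean CPM and the 2 with the smallest p, per list the 2 with the smallest p, any gene past the threshold, and SLBP, NPAT and HRAS. H2BC4, H2BC6, H2BC17, H2AC16 and the other members outside this rule are named for completeness, after their values were seen. A further list of cell type markers is not reported here.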

Additional observations from a re-analysis of the deposited data

How the results depend on the processing

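No histone gene passed the threshold in any of the 16 other fits. Over all genes the count of calls was 2, and it was 24 with DESeq2, 57 without a filter on low counts, 39 after GC and length correction, 6 with that correction and the replicate block, 81 with the GC trend set as a covariate, 4 without control guide replicate 1, 24 without control guide replicate 2, and 1 or 2 in the other fits. The median of all tested members (−0.05) ran from −0.09 to 0.03 over these fits, above 0 without control guide replicate 2 alone. The H2A median (−0.07) was −0.158 with DESeq2 and −0.156 without a filter on low counts, with 13 H2A genes in place of 6, −0.151 over the 4 H2A genes with at least 1 CPM in 3 libraries, and ran from −0.0759 to 0.0736 when each library was left out. The H3 median (−0.29) was −0.502 with a filter of at least 1 CPM in 3 libraries, which kept 1 H3 gene, and ran from −0.389 to −0.0354 over the left-out libraries, with 5 H3 genes past the filter at both ends. Over the 4 genes tested with all libraries, an alternative chosen after seeing the data, it ran from −0.426 to −0.0867. Among the named genes, 14 had estimates that changed sign in some fit without passing the test, and the cause was not tested. H1-2 was at 0.00297 in limma-voom, 0.0235 with library totals, 0.0166 after GC and length correction and 0.0187 with that correction and the replicate block. H2AC6 was at −0.0029 in limma-voom, −0.014 after the correction, −0.0182 with the block as well and −0.0519 with the GC trend set. H4C8 was at −0.0139 after the correction and −0.0174 with the block as well, where H4C9 was at −0.00307. With the GC trend set, H4C16 was at 0.0339, NPAT at 0.117 and HRAS at −0.0914. Over the left-out libraries the estimates ran from −0.0800 to 0.0961 for H1-2, −0.0397 to 0.210 for H1-4, −0.137 to 0.435 for H1-5, −0.0505 to 0.114 for H2AC6, −0.516 to 0.150 for H2AC20, −0.0291 to 0.137 for H2BC21, −0.569 to 0.0132 for H3C2, −0.136 to 0.169 for H4C9, −0.0975 to 0.166 for H4C8, −0.172 to 0.112 for H4C16, −0.468 to 0.00562 for H4C5, −0.372 to 0.132 for H4C1, −0.280 to 0.0810 for NPAT and −0.127 to 0.221 for HRAS. Without GC correction, same-numbered libraries did not deviate together (correlations of −0.54, −0.66 and −0.14). The GC trends of the libraries had opposite signs within each same-numbered pair. These correlations therefore cannot decide whether the numbers pair the libraries. With the replicate block 0 members passed, their median was −0.0491 and H1-2 was at 0.00399. Genes of under 1 CPM, 40 of them not tested, rest on few counts, which limits what can be seen.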
